A study of Mus musculus with 4 samples.

Results

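The 10 genes described here encode the enzymes and core proteins of 2 gene-silencing systems, Polycomb repressive complex 2 (PRC2) and the DNA methylation machinery. They are Ezh1, Ezh2, Eed, Suz12, Jarid2, Dnmt1, Dnmt3a, Dnmt3b, Uhrf1 and Tet1, chosen by name, and they account for 10 of the 23746 gene rows of the expression tables. PolyA RNA was sequenced from 4 primary mammary tumors of female mice. Tumors 26043 and 26044 came from WapCre;Rank;Brca1;p53 females (triple-mutant) and tumors 26048 and 26050 from WapCre;Brca1;p53 females (double-mutant), so Brca1 and p53 were targeted in all 4 tumors and the genotypes differ in Rank. In these mice a WapCreC transgene, which is active in luminal and basal cells of the mammary epithelium, recombines conditional alleles, and other cells of the tumor keep them intact. The study's pathology describes tumors of triple-mutant mice as intermediate-grade and those of double-mutant mice as either high-grade or intermediate-grade. The grade of the 2 sequenced double-mutant tumors and the ages are not given in the sources used here, so grade and genotype cannot be told apart. The comparison asks whether loss of RANK in the mammary epithelium goes along with a different RNA level of these enzymes in the tumors that form. Levels are given in FPKM, fragments scaled to the length of the transcript and to the number of mapped fragments of the tumor, which allows levels to be compared between genes.

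PRC2 places methyl groups on lysine 27 of histone H3, a mark of silenced developmental genes. EZH2 or its relative EZH1 supplies the catalytic SET domain, EED binds the methylated histone and SUZ12 holds the complex together, while JARID2 is an accessory subunit that helps to bring it to chromatin. DNA methylation at CpG dinucleotides is laid down by DNMT3A and DNMT3B and copied to the new strand after replication by DNMT1, which UHRF1 guides to hemimethylated DNA. TET1 oxidizes methylcytosine and thereby starts its removal. EZH2, DNMT1 and UHRF1 are known as genes of dividing cells, whereas EZH1 is also made in resting cells. High EZH2 has been described in basal-like breast cancer and in tumors with BRCA1 loss.

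Tumor-wide facts that bear on these genes were as follows. The gene row of Rank (Tnfrsf11a) was at 2.07 and 0.962 FPKM in the triple-mutant tumors and at 10.6 and 11.9 FPKM in the double-mutant tumors (-2.32 log2 units, adjusted p = 0.22 from limma). Brca1 ranged from 3.26 to 5.69 FPKM and Trp53 from 15.7 to 149.7 FPKM over the 4 tumors, the lowest Trp53 value being that of tumor 26043, and a value over a whole gene does not show which exons remain. The summed FPKM of 6 basal epithelial markers was 1736 and 1259 in triple-mutant against 68.1 and 46.6 in double-mutant tumors. Of the tested basal markers 5 of 5 were higher in both triple-mutant tumors, as were 21.3% of all tested genes. The 6 luminal markers summed to between 1976 and 2847 FPKM in 3 tumors and to 413 FPKM in tumor 26044. The 6 fibroblast markers summed to 196 and 112 FPKM in triple-mutant and to 881 and 425 FPKM in double-mutant tumors, and the 7 immune markers to 145 and 147 against 458 and 307 FPKM. Of the tested markers, 4 of 6 for luminal epithelium, 4 of 6 for fibroblasts and 4 of 5 for immune cells were higher in both double-mutant tumors. The same held for 22.9% of all tested genes. In the luminal and the fibroblast list 1 marker each was higher in both triple-mutant tumors. Ezh2, Eed, Suz12 and Uhrf1 were also higher in both double-mutant tumors, and the part of these cells in the differences of the 4 genes was not tested. The fibroblast and immune sums were highest in tumor 26048, as was that of the 4 adipocyte markers (712.5 against 0.177 to 5.95 FPKM). Among the adipocyte markers, Adipoq and Plin1 were listed at 0 in tumor 26044 and Lep in all but tumor 26048. The 4 skeletal muscle markers summed to 28.9 FPKM in tumor 26050 and to 0.627 to 0.689 FPKM elsewhere. Fewer cells of a type and less RNA per cell cannot be told apart in such bulk samples. The number of reads per tumor is unknown, and the study calls the mice of both genotypes littermates without saying which tumors share a litter. Nothing says which were prepared together either, so p-values measure only the spread between these tumors.

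Transcripts of 9 of the 10 genes were present at 1 FPKM or more in every tumor, and Tet1 stayed below 1 FPKM in all 4. Averaged over the 4 tumors, Uhrf1 was the most abundant at 56.9 FPKM, followed by Dnmt1 at 44.6, Ezh2 at 35.2, Suz12 at 23.4 and Eed at 22.7 FPKM. A lower tier held Ezh1 at 9.38, Dnmt3a at 8.06, Jarid2 at 4.63 and Dnmt3b at 3.38 FPKM, and Tet1 had 0.376 FPKM. The ranges over the tumors did not overlap at only 2 steps of this order, between Eed and Ezh1 and between Dnmt3b and Tet1. All other neighbours in the order overlapped, so the maintenance pair Uhrf1 and Dnmt1 and the PRC2 core genes Ezh2, Suz12 and Eed form one upper tier. Dnmt1 exceeded Ezh2 and Dnmt3a exceeded Jarid2 in 4 of 4 tumors, while the other overlapping neighbours kept their order in 3 of 4.

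**Figure D1:**
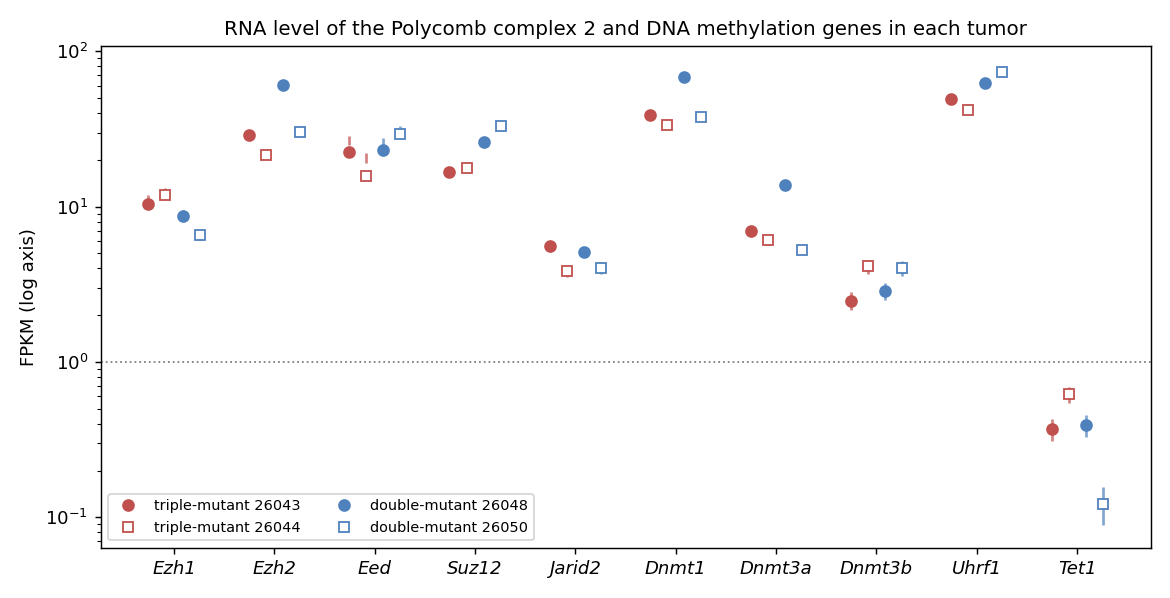
FPKM of the 10 genes in each tumor on a log axis, red for triple-mutant and blue for double-mutant tumors, with vertical lines for the confidence interval of Cufflinks and a dotted line at 1 FPKM. Ezh2, Eed, Suz12, Dnmt1 and Uhrf1 lie above 15 FPKM and Tet1 below 1 FPKM in all 4 tumors.

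Because several of these enzymes are made mainly in dividing cells, their promoters were searched for the binding sequence of E2F, the transcription factor family of the G1 to S transition. The RefSeq windows (build GRCm38.p6, which is mm10) run from 250 bases before to 50 bases after an annotated start, and all 10 genes had at least 1, with 16 windows in all. The sequence was searched on both strands as TTTCCCGC, TTTCGCGC, TTTGCCGC or TTTGGCGC. It occurred in windows of 4 of the 10 genes, Ezh2, Dnmt1, Suz12 and Uhrf1, which had the highest mean levels of the 10. Of all 32851 windows 2.26% held it, of the 9038 tested genes with a window 4.78%, and of the 20 S phase and proliferation genes with a window 8 did (40.0%). The share of the 10 genes was 40.0%. A match describes the letters only, and binding of E2F was not measured. The matches are printed with 30 bases each, in the direction of the gene, capitals marking the match, so that the shared core can be seen. Positions give the first capital, counted from 1 at the first transcribed base and negative before it.
Ezh2, position 4, chr6:47595009-47595038, minus strand: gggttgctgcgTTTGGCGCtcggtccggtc
Dnmt1, position -219, chr9:20952824-20952853, minus strand: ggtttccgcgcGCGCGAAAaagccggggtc
Dnmt1, position 34, chr9:20952574-20952603, minus strand: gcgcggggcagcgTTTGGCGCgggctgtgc
Suz12, position -219, chr11:79992876-79992905, plus strand: cgacccctcatTTTCCCGCgaattcagttc
Uhrf1, position -185 of its second start, chr17:56304117-56304146, plus strand: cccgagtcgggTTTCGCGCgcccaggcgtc
The first Dnmt1 match lies on the other strand and therefore reads in reverse. Of the 3 Dnmt1 windows 1 held both matches, and of the 2 Uhrf1 windows 1 held its match. The windows of Ezh1, Eed, Jarid2, Dnmt3a, Dnmt3b and Tet1 had no such letters. CpG dinucleotides were dense in the windows with a match, with 31 in that of Ezh2, 33 in the matching windows of Dnmt1 and Uhrf1 and 41 in that of Suz12, against a median of 7 over all windows. Most windows without a match were dense too. They held 46, 47 and 18 for Dnmt3a, 30 for Dnmt3b and 17 to 24 for Ezh1, Jarid2, Eed and Tet1. The other windows of Dnmt1 held 2 and 12, and that of Uhrf1 held 12.

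Among the 9 genes tested, 7 had a lower mean of log2(FPKM + 1) in triple-mutant tumors and 2, Ezh1 and Jarid2, a higher one. The median difference, triple-mutant minus double-mutant, was -0.45 log2 units over the 9 genes and -0.02 over all 12752 genes tested. In limma with Benjamini-Hochberg adjustment over all of these genes, 0 of the 9 had an adjusted p under 0.05, and the background is 0% of all genes (0 of 12752). At an unadjusted p under 0.05 the counts were 0 of 9 and 1252 of 12752 (9.82%). Without the filter on low values 2 of the genes, Suz12 and Uhrf1, had an unadjusted p under 0.05, as had 1838 of all 23746 genes. With the midpoint of the Cufflinks interval Suz12 had, as had 1160 of all 12752 genes. Both double-mutant tumors lay above both triple-mutant tumors for 4 genes, Ezh2, Eed, Suz12 and Uhrf1, and 22.9% of all tested genes did the same. The reverse held for Ezh1 alone, against 21.3% of all tested genes. In either direction the genotypes were apart for 5 of the 9 genes and for 44.3% of all tested genes, a share near that of the background. Every 95% interval of a difference included 0, so the 2 tumors per genotype set wide bounds on each gene rather than showing equal levels.

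**Figure D2:**
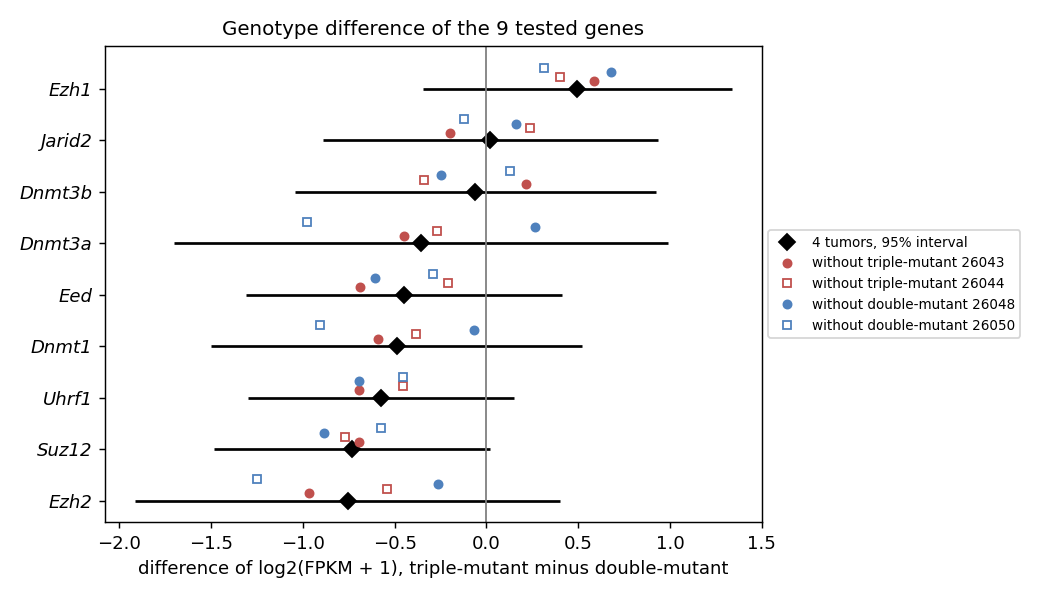
Difference of log2(FPKM + 1), triple-mutant minus double-mutant, for the 9 tested genes, with the 95% interval from limma (black) and the value with each tumor left out (coloured marks). The intervals all include 0, Ezh2 moves from -1.25 to -0.26 according to the tumor left out, and Suz12 and Uhrf1 stay below 0.

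Ezh2, the main catalytic subunit of PRC2 in dividing cells (chr6:47530274-47595030 on mm10), was at 29.0 and 21.4 FPKM in the triple-mutant tumors 26043 and 26044 and at 60.5 and 30.05 FPKM in the double-mutant tumors 26048 and 26050. The value of tumor 26048 stood apart from the other 3, and tumors 26043 and 26050 were nearly level. The means were 25.2 ± 5.4 and 45.3 ± 21.5 FPKM (SD, n = 2 each). On the log2(FPKM + 1) scale the difference was -0.76 (95% interval -1.91 to 0.40, adjusted p = 0.61 from limma). Without tumor 26048 the difference was -0.26, and without tumor 26050 it was -1.25. When the tables were rescaled to TPM, which brings every tumor to the same sum over genes, Ezh2 was at 41.95 and 26.8 TPM in triple-mutant and at 85.3 and 40.5 TPM in double-mutant tumors, and the genotypes overlapped.

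Ezh1, the second catalytic subunit (chr11:101191115-101226450), went the other way. It was at 10.3 and 11.9 FPKM in triple-mutant and at 8.74 and 6.56 FPKM in double-mutant tumors, and the genotypes did not overlap in FPKM, in TPM or relative to the S phase genes described below. The difference was 0.49 log2 units (95% interval -0.35 to 1.34, adjusted p = 0.64 from limma), and 0.31 without tumor 26050. Of its 63 tested neighbours within 1 Mb, Brca1 among them, 17 were higher in both triple-mutant and 6 in both double-mutant tumors. The shares over all tested genes were 21.3% and 22.9%. The median difference of the neighbours was 0.15 log2 units.

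The balance of both catalytic subunits was then compared within each tumor. Ezh2 made up 73.7% and 64.2% of the summed FPKM of Ezh1 and Ezh2 in the triple-mutant tumors and 87.4% and 82.1% in the double-mutant tumors. In ratios, Ezh2 exceeded Ezh1 2.80-fold and 1.79-fold in triple-mutant and 6.92-fold and 4.58-fold in double-mutant tumors. The tested balance was log2(FPKM + 1) of Ezh2 minus that of Ezh1, which was at 1.40 and 0.79 in triple-mutant and at 2.66 and 2.04 in double-mutant tumors. The genotypes were apart, with a difference of -1.25 between their means (p = 0.333 in an exact two-sided permutation test, whose p cannot be lower with 2 tumors on each side). This outcome was fixed in advance, because Ezh2 and Ezh1 were each apart between the genotypes, in opposite directions. For the same reason the sign had to hold with any tumor left out. The balance therefore restates both separations and adds no evidence to them. Leaving out any tumor kept the value between -1.56 and -0.94. No stretch of 50 bases, the length of a read, was shared between the annotated transcripts of Ezh1 and Ezh2.

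**Figure D3:**
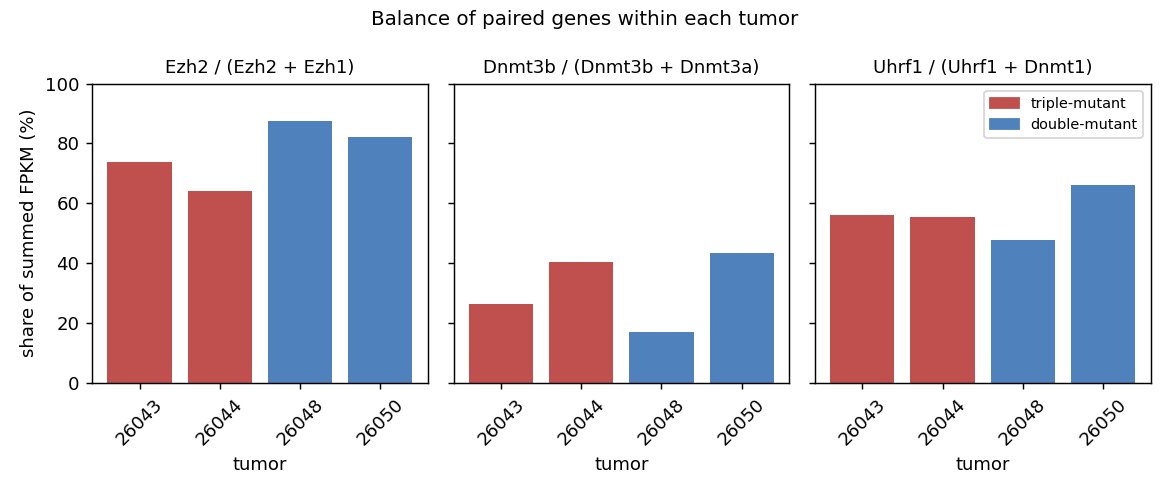
Share of the first gene in the summed FPKM of a pair, in percent, for each tumor (red, triple-mutant; blue, double-mutant). Ezh2 holds 64.2% and 73.7% of its pair in triple-mutant and 82.1% and 87.4% in double-mutant tumors, while the Dnmt3b and Uhrf1 shares overlap between genotypes.

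Suz12, the scaffold of PRC2 (chr11:79993106-80034123), had the smallest gap of the 9 genes between the triple-mutant tumors. It was at 16.8 and 17.8 FPKM in triple-mutant and at 26.2 and 32.9 FPKM in double-mutant tumors, which gives means of 17.3 ± 0.7 and 29.6 ± 4.7 FPKM (SD, n = 2 each). Both double-mutant values were above both triple-mutant values, in TPM and relative to the S phase genes as well. Its difference of -0.73 log2 units had the smallest adjusted p of the 9 genes in limma, 0.51, with a 95% interval from -1.48 to 0.02. With each tumor left out the difference ranged from -0.89 to -0.57. Among the 19 tested neighbours of Suz12 within 1 Mb, 9 were higher in both double-mutant and 1 in both triple-mutant tumors. The shares over all tested genes were 22.9% and 21.3%. The median difference of the neighbours was -0.36 log2 units, and the part of the neighbourhood in the Suz12 difference was not tested.

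Eed, the subunit that reads the methylated histone (chr7:89954654-89980976), was at 22.4 and 15.8 FPKM in triple-mutant and at 23.3 and 29.2 FPKM in double-mutant tumors. The values of tumors 26043 and 26048 were nearly level. Eed was the only one of the 10 genes whose FPKM lay outside its own Cufflinks interval in every tumor. With the midpoint of that interval in place of the FPKM, the values were 26.6 and 20.6 against 25.7 and 31.4 FPKM, and the genotypes overlapped. The difference in FPKM was -0.45 log2 units (95% interval -1.31 to 0.41, adjusted p = 0.67 from limma). It was -0.69 without tumor 26043 and -0.21 without tumor 26044. Of the 10 tested neighbours of Eed within 1 Mb, 5 were higher in both double-mutant and 0 in both triple-mutant tumors. The shares over all tested genes were 22.9% and 21.3%.

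Jarid2, the accessory subunit (chr13:44730774-44921643), was at 5.55 and 3.84 FPKM in triple-mutant and at 5.12 and 4.03 FPKM in double-mutant tumors. One tumor of each genotype was higher and the other lower, so the spread within each genotype exceeded the difference between them, 0.02 log2 units (95% interval -0.89 to 0.93, adjusted p = 0.99 from limma).

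Of the maintenance enzymes, Uhrf1 (chr17:56303337-56323486) was at 49.5 and 41.6 FPKM in triple-mutant and at 62.6 and 74.0 FPKM in double-mutant tumors. The genotypes were apart, with means of 45.6 ± 5.5 and 68.3 ± 8.1 FPKM (SD, n = 2 each). The difference was -0.57 log2 units (95% interval -1.30 to 0.15, adjusted p = 0.56 from limma), and between -0.70 and -0.45 with each tumor left out. The tested neighbours of Uhrf1 within 1 Mb leaned the other way. Of these 49 genes, 19 were higher in both triple-mutant and 5 in both double-mutant tumors, against 21.3% and 22.9% of all tested genes. Their median difference was 0.11 log2 units. In the GENCODE M21 transcripts 15.4% of the 50-base stretches of Uhrf1 also occurred in other genes, nearly all in the processed pseudogene Gm5648 on the X chromosome, and how the authors' pipeline placed such reads was not tested. For the other genes this share was below 0.5%, except Dnmt3b.

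Dnmt1, the methyltransferase that UHRF1 recruits (chr9:20907206-20959888), was at 38.7 and 33.4 FPKM in triple-mutant and at 68.4 and 37.8 FPKM in double-mutant tumors. Tumor 26048 alone was high, and tumor 26050 lay between the 2 triple-mutant tumors. The difference of -0.49 log2 units (95% interval -1.5 to 0.52, adjusted p = 0.69 from limma) came to -0.07 without tumor 26048 and to -0.91 without tumor 26050. Uhrf1 exceeded Dnmt1 1.28-fold and 1.25-fold in triple-mutant tumors, was below it in tumor 26048 (0.914-fold) and exceeded it 1.96-fold in tumor 26050. The tested neighbours of Dnmt1 within 1 Mb had a median difference of 0.21 log2 units, opposite in sign to that of Dnmt1. Of these 47 genes, 16 were higher in both triple-mutant and 1 in both double-mutant tumors, against 21.3% and 22.9% of all tested genes.

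The de novo enzyme Dnmt3a (chr12:3806980-3914443) also peaked in tumor 26048. It was at 7.02 and 6.08 FPKM in triple-mutant and at 13.9 and 5.27 FPKM in double-mutant tumors, so the highest and the lowest value both belonged to double-mutant tumors. The gap between these was 1.25 log2 units, and 7.42% of all tested genes had a gap at least as wide between the same tumors. The difference between genotypes was -0.36 log2 units (95% interval -1.70 to 0.99, adjusted p = 0.82 from limma) and came to 0.26 without tumor 26048 and to -0.98 without tumor 26050. Of 16 tested neighbours within 1 Mb, 9 were higher in both double-mutant tumors and 0 in both triple-mutant tumors, against 22.9% and 21.3% of all tested genes.

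Dnmt3b (chr2:153649454-153687730) was at 2.49 and 4.12 FPKM in triple-mutant and at 2.87 and 4.02 FPKM in double-mutant tumors. As for Jarid2, a tumor of each genotype was high and the other low, here the other ones, and the difference was -0.06 log2 units (95% interval -1.04 to 0.92, adjusted p = 0.96 from limma). Dnmt3b held 26.2% and 40.4% of the summed FPKM of both de novo enzymes in triple-mutant and 17.1% and 43.3% in double-mutant tumors, which overlapped. Of its 50-base stretches 9.81% also occurred in Dnmt3c, the neighbouring duplicate that acts in the male germ line.

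Tet1 (chr10:62804570-62880014) did not pass the filter on low values and has no test in the comparison. It was at 0.368 and 0.621 FPKM in triple-mutant and at 0.393 and 0.123 FPKM in double-mutant tumors. Its lowest level, in tumor 26050, was 5.06-fold below its highest, and the values of tumors 26043 and 26048 were close together. Its relatives Tet2 and Tet3, named for this comparison after their values were seen, were higher, at 1.67 to 3.17 and at 5.58 to 13.5 FPKM over the 4 tumors.

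The 9 tested genes peaked in different tumors. Of all tested genes, 27.9% and 24.2% were highest in the triple-mutant tumors 26043 and 26044. The shares for the double-mutant tumors 26048 and 26050 were 23.2% and 24.7%. Eed, Suz12 and Uhrf1 were highest in tumor 26050, and Ezh2, Dnmt1 and Dnmt3a in tumor 26048. Ezh1 and Dnmt3b were highest in tumor 26044 and Jarid2 in tumor 26043. The 4 genes with the E2F sequence printed above were therefore split between tumors 26050 and 26048. A list of 25 S phase and proliferation genes, such as the Mcm helicase genes, Pcna and Mki67, was set beside them, since several of the enzymes are made mainly in dividing cells. Its mean log2(FPKM + 1) was 5.02 and 4.87 in triple-mutant and 4.99 and 5.42 in double-mutant tumors. Of its 25 genes 16 were highest in tumor 26050, as were 24.7% of all tested genes. The part of proliferation in the levels of the 9 genes was not tested. Relative to the list mean, Ezh2 was at -0.12 and -0.39 in triple-mutant and at 0.95 and -0.47 log2 units in double-mutant tumors. On that scale Suz12 (-0.87 and -0.64 against -0.22 and -0.34) and Uhrf1 (0.64 and 0.54 against 0.999 and 0.81) were still apart between the genotypes. Centring on the list brought the difference to -0.47 for Suz12, -0.31 for Uhrf1, -0.50 for Ezh2, -0.19 for Eed, -0.23 for Dnmt1 and -0.10 for Dnmt3a, and to 0.75 for Ezh1, 0.28 for Jarid2 and 0.20 for Dnmt3b, all with adjusted p above 0.05 in limma. Ezh2, Dnmt1 and Dnmt3a peaked in the tumor with the highest fibroblast, immune and adipocyte marker sums given above, and the part of those cells in the peak was not tested. The 15 tested neighbours of Ezh2 within 1 Mb also had their highest median in tumor 26048, 0.43 log2 units above their 4-tumor mean, and their lowest in tumor 26050 at -0.61. Between genotypes their median difference was 0.27 log2 units, opposite in sign to that of Ezh2. Of these neighbours, 3 were higher in both triple-mutant and 1 in both double-mutant tumors, against 21.3% and 22.9% of all tested genes.

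**Figure D4:**
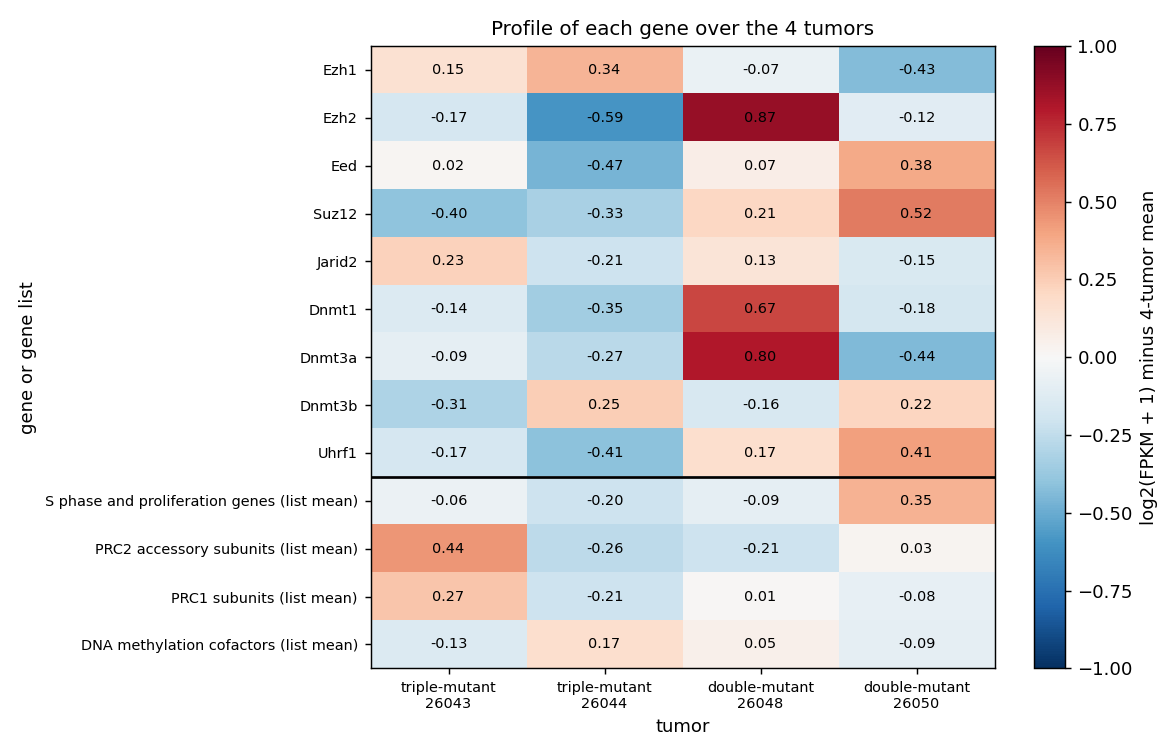
Each row gives log2(FPKM + 1) of a gene, or of the mean of a gene list below the black line, minus its mean over the 4 tumors. Ezh2, Dnmt1 and Dnmt3a have their peak in tumor 26048 (0.87, 0.67 and 0.80), and Suz12, Uhrf1, Eed and the S phase list have theirs in tumor 26050 (0.52, 0.41, 0.38 and 0.35).

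The tested genes closest to Ezh2 by the root mean square distance of their centred log2 values over the 4 tumors were Jak3 (0.03), Pik3c2b (0.06) and P4ha3 (0.08). Jak3, a cytokine receptor kinase, was at 6.85 and 5.05 FPKM in triple-mutant and at 15.8 and 7.06 FPKM in double-mutant tumors. Those closest to Dnmt1 were Clk3 (0.02), Srrm2 (0.03) and Zfp609 (0.04), the former 2 with roles in splicing. Srrm2 was at 48.6 and 40.1 FPKM in triple-mutant and at 80.4 and 46.4 FPKM in double-mutant tumors. With 4 tumors such likeness is a description only. Over the 9 tested genes the tumors of the triple-mutant pair were a median of 0.24 log2 units apart (0.45 over all tested genes), and those of the double-mutant pair 0.36 (0.36 over all tested genes).

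The other subunits of the Polycomb complexes were read from the same fit. Of 6 further PRC2 subunits, all tested, 0 had an adjusted p under 0.05 in limma. An unadjusted p under 0.05 was found for 0 of them, against 9.82% of all tested genes. Their median difference was 0.12 log2 units. The largest differences were those of Phf1, Rbbp7 and Phf19. Phf1, a Tudor protein that binds PRC2, was at 20.2 and 9.80 FPKM in triple-mutant and at 8.15 and 3.94 FPKM in double-mutant tumors. It was the only one of the 6 whose genotypes did not overlap, against 44.3% of all tested genes. Rbbp7, a histone chaperone of several complexes, was at 94.1 to 99.7 FPKM in 3 tumors and at 260.7 FPKM in tumor 26050. Phf19 was at 4.76 and 0.932 FPKM against 0.415 and 1.96 FPKM. The 21 subunits of PRC1, the complex that ubiquitinates histone H2A and compacts Polycomb targets, included 0 past the adjusted and 0 past the unadjusted threshold. Of these 21, 4 were higher in both triple-mutant and 4 in both double-mutant tumors, near the 21.3% and 22.9% of all tested genes. Their median difference was 0.08 log2 units. Phc1, a Polyhomeotic homolog, had the largest of these differences, 0.82 (adjusted p = 0.54 from limma), followed by L3mbtl2 with -0.78 and Cbx6 with 0.61.

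Enzymes that remove the Polycomb marks formed a separate list. Of 5 tested H3K27 demethylases and Polycomb deubiquitinase genes 0 passed either threshold, with a median of -0.23 log2 units. Kdm6a, an H3K27 demethylase on the X chromosome, was at 7.10 and 9.38 FPKM in triple-mutant and at 12.8 and 13.7 FPKM in double-mutant tumors. Bap1, which removes ubiquitin from histone H2A, was at 34.3 and 31.5 against 16.0 and 26.05 FPKM, and its partner gene Asxl2 at 2.66 and 2.22 against 6.08 and 4.09 FPKM. In each of these 3 genes, named for the largest differences of the list, the genotypes did not overlap. Of the 5 tested genes, 1 was higher in both triple-mutant and 2 in both double-mutant tumors. The shares over all tested genes were 21.3% and 22.9%.

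Among the partners of DNA methylation, 0 genes of any list had an adjusted p under 0.05 in limma. In the same fit 9.82% of all tested genes had an unadjusted p under 0.05, the background for the counts that follow. The cofactor list (6 tested) had 1 gene with an unadjusted p under 0.05, Cdca7, which recruits the remodeler HELLS to hemimethylated DNA. Cdca7 was at 30.8 and 39.9 FPKM in triple-mutant and at 19.1 and 19.3 FPKM in double-mutant tumors, a difference of 0.84 log2 units (adjusted p = 0.49 from limma). Its partner Hells went the other way, at 10.8 and 10.03 against 15.0 and 17.5 FPKM. Zfp57, which protects imprints, was near the filter at 0.392 to 2.47 FPKM. The list of TET and demethylation genes (8 tested) had 2 with an unadjusted p under 0.05, Gadd45g and Gadd45b, stress genes that have been linked to active demethylation. Gadd45g was at 57.7 and 55.4 FPKM in triple-mutant and at 12.65 and 12.1 FPKM in double-mutant tumors, a difference of 2.104 log2 units (standard error 0.26, adjusted p = 0.18 from limma). Gadd45b differed by 1.03 log2 units in the same direction. Gadd45a was at 208.5 FPKM in tumor 26048 and at 11.7 to 18.2 FPKM in the other 3. Of 7 readers of methylated CpG, Mbd3, a subunit of the NuRD complex, was the 1 with an unadjusted p under 0.05, at 169.1 and 206.4 FPKM in triple-mutant and 104.6 and 109.9 FPKM in double-mutant tumors. Zbtb4 differed by 0.53 and Zbtb33 by -0.47 log2 units.

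Genes that these systems are known to silence were mostly below 1 FPKM. Over all 23746 gene rows, between 12150 and 12681 reached 1 FPKM in a tumor. Of 14 germline genes kept off by promoter methylation in somatic cells, 12 stayed below 1 FPKM in every tumor, and 0 passed the filter. Brdt reached 1.24 FPKM in tumor 26044 and Sycp3 1.71 FPKM in tumor 26048. Hormad1, Mael and Tex101 were listed at 0 in all 4 tumors. The summed FPKM of the 14 genes was 1.65 and 1.63 in triple-mutant and 2.67 and 1.02 in double-mutant tumors. Of 16 classic Polycomb targets outside the Hox clusters, 13 stayed below 1 FPKM in every tumor. Gata6 was at 3.25 FPKM in tumor 26044 and at 0.156 to 0.336 FPKM elsewhere. From this list 2 genes were tested, Cdkn2a and Cdkn2b, the neighbouring cell cycle inhibitor genes of chromosome 4. Cdkn2a was at 290.5 and 152.7 FPKM in triple-mutant and at 101.2 and 75.2 FPKM in double-mutant tumors, a difference of 1.26 log2 units (standard error 0.42, adjusted p = 0.49 from limma). Cdkn2b was at 22.8 and 11.02 FPKM in triple-mutant and at 9.72 and 8.97 FPKM in double-mutant tumors. Both genes were higher in both triple-mutant than in both double-mutant tumors, as were 21.3% of all tested genes.

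In the S phase and proliferation list, 10 of the 25 tested genes were higher in both double-mutant and 3 in both triple-mutant tumors. Of all tested genes 22.9% and 21.3% were. The median difference of the list was -0.29 log2 units. In limma 0 of its genes had an adjusted p under 0.05 and 4 an unadjusted p under 0.05, against 9.82% of all tested genes for the latter. The largest differences were those of Rrm2, Ccne1 and Cdk1. Rrm2, a subunit of ribonucleotide reductase, was at 39.7 and 27.4 FPKM in triple-mutant and at 64.6 and 149.9 FPKM in double-mutant tumors. Ccne1 was at 16.3 and 17.9 against 20.6 and 69.8 FPKM. Cdk1 was at 215.6 FPKM in tumor 26044 and at 37.6 to 65.3 FPKM in the other 3.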

How the data were processed

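Per the labels, the submitters' processing notes and the methods of the study, the authors purified polyA RNA from 4 tumors, prepared strand-specific TruSeq libraries and read 50 bases from one end. They used TopHat2 2.0.10 and Bowtie 0.12.9 for alignment to mm10 and deposited FPKM per gene with the bounds of a confidence interval from Cufflinks 2.1.1. Read depth is unknown. Their read counts and the DESeq2 test on them were not used here.

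The 4 tables were joined by symbol and position, with 1 added to the starts. A gene entered the test when 2 or more tumors reached 1 FPKM, and its values were fitted as log2(FPKM + 1) with limma 3.58.1 in R 4.3.3 (eBayes with a trend), which was tested on simulated data. A fold change on this scale understates the change of low genes. Pairs of genes were compared by exact permutation (scipy 1.17.1). Members and gene lists were chosen with earlier results of these data known. Non-member genes were named by rule, as the 3 tested genes of each list with the largest absolute difference and the 3 closest in profile. Brdt, Sycp3 and Gata6 were named after their values were seen. Lists are described by counts and medians, without a test. The alternatives are listed under the dependence on processing. Shared 50-base stretches came from GENCODE M21 transcripts. The median half-width of the deposited interval was 8.35% to 8.78% of its midpoint for genes at 1 FPKM or more.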

Additional observations from a re-analysis of the deposited data

How the results depend on the processing

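The alternatives were TPM, quantile normalization, a filter of 5 FPKM or none, 0.1 as the pseudocount, eBayes without the trend, no small RNA genes, the interval midpoint, each tumor left out, and centring on the S phase list. For the counts, the last was chosen after seeing the data. It moved the median difference of all genes from -0.02 to 0.24. Of 116 values of the 9 genes under these alternatives, 108 kept their direction and 0 had an adjusted p under 0.05 in limma (lowest 0.37). Changing or dropping the filter, dropping the trend and removing small RNA genes leave the log2 difference of a gene as it was. Their values could not reverse and are among the 108 by construction. The 8 values that reversed belonged to Dnmt3a, Dnmt3b and Jarid2. With each tumor left out they ranged from -0.98 to 0.265 for Dnmt3a, from -0.337 to 0.217 for Dnmt3b and from -0.198 to 0.24 for Jarid2. Dnmt3b was at 0.199 under centring, and Jarid2 at -0.003 in TPM and -0.038 after quantile normalization. The count of genes past the threshold went from 0 to 5 without the trend, 1 with the midpoint and 19 under centring. The count of the 9 genes with genotypes apart went from 5 to 4 in TPM and with the midpoint, to 6 after quantile normalization and to 3 under centring. It went to between 6 and 8 with each tumor left out, where 1 tumor faces 2 by construction. Of all 12752 genes, 2722 were higher in all triple-mutant and 2922 in all double-mutant tumors. These counts were 3842 and 1346 under centring, and at least 3923 and 4063 with each tumor left out. The difference between genotypes in log2(FPKM + 1) of Dnmt3b minus Dnmt3a, 0.30, ranged from -0.51 to 1.11 and that of Uhrf1 minus Dnmt1, -0.09, from -0.63 to 0.46 with each tumor left out. Apart from this construction, the cause was not tested. No paired analysis was possible because the labels give the tumors different numbers and no source says which of them are littermates.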
